A study of Homo sapiens with 4 samples.

Results

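The regions described here are stretches of the autosomes that lay under an H3K9me2 peak in both CUX1 knockout libraries and under no listed peak in either control library. They were found from the deposited peak lists of 4 CUT&RUN libraries, 2 per group, and an interval was kept where it ran for at least 1500 bp without a break. This gave 6554 knockout-only intervals on chromosomes 1 to 22, holding 13.5 Mb or 0.468% of the autosomes. The members were chosen by peak coverage itself, so their being covered in the knockouts and bare in the controls is the rule and not a result. For scale, the same construction was applied to the other ways of pairing the 4 libraries. These are the control-only set and the 4 sets of the 2 cross-group pairings, in each of which 1 knockout and 1 control library are covered and the others are not. The 6 sets together held 86471 intervals, of which the knockout-only ones made up 7.58%.

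H3K9me2, histone H3 dimethylated at lysine 9, is placed mainly by the methyltransferases G9a and GLP, is read by proteins that keep chromatin compact, and forms broad, shallow domains over silent genes and gene-poor sequence, many of them at the nuclear lamina. CUX1 is a homeodomain transcription factor encoded on chromosome 7 and is known as a tumor suppressor lost in myeloid neoplasms. The knockout cells were K562, an established myeloid leukemia line, given a CRISPR guide against CUX1. The control cells were K562 given a guide against HPRT, a purine salvage enzyme whose gene is a common neutral target. Both groups were grown in the same medium and profiled with the same antibody. CUT&RUN tethers a nuclease to the marked chromatin through that antibody, and the DNA it releases is sequenced. The labels number the libraries 1 and 2 but do not say whether they came from separate cultures or clones. Listed peaks show where the mark was called, up to the end of each list, and not how much of it there was.

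Each list held 250000 peaks, so the libraries differ in covered length and not in number of peaks. On the autosomes, peaks covered 417 and 580 Mb in the knockout libraries (replicates 1 and 2), against 682 and 670 Mb in the control libraries. The median peak was 1336 and 1915 bp wide in the knockouts and 2351 and 2300 bp wide in the controls. A peak of at least 1500 bp, which an interval needs in both of its libraries, was available in 44.5% and 60.9% of knockout peaks and in 68.8% and 68.1% of control peaks. The lists ended at a −log10 p of 1.49 and 1.35 in the knockouts and of 1.25 and 1.27 in the controls. How many reads stood behind each list is unknown. In the peak names, control replicate 1 alone has a numbered "sub" tag and the knockouts are written "cux1kd". The labels explain neither. The part of covered length, of this tag and of the ends of the lists in the values below was not tested, beyond the settings given at the end.

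The knockout-only set was the smallest of the 6 by number, by total length and by median length. The control-only set was the largest by the same measures, with 24899 intervals and 56.8 Mb. The 4 cross-group sets held 9239 intervals (knockout 1 with control 1), 18875 (knockout 2 with control 2), 8611 (knockout 1 with control 2) and 18293 (knockout 2 with control 1). The knockout-only number was 0.476 times the cross-group mean of 13754 ± 5588 (SD, n = 4 sets, which share libraries and are not independent). All 3 sets built on knockout replicate 1, the library with the least covered sequence, held fewer intervals than any of the others. Among these 3, the knockout partner gave fewer intervals than either control partner.

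Before the length rule, both knockouts and neither control covered 43.6 Mb in 63542 pieces, most of them short. The rule kept 10.3% of the pieces and 30.9% of the bases, against 20.5% of the pieces in the control-only set and 12.0% to 17.7% in the cross-group sets. At the threshold, 1070 members measured 1500 to 1599 bp, while 1172 pieces of 1400 to 1499 bp were left out.

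A second yardstick takes covered length into account. In each window of 1 Mb, the share of bases under peaks in both knockouts was multiplied by the share free of peaks in both controls, and the products were added over the autosomes. That product, which is what unrelated lists of the same coverage would share, came to 49.2 Mb, and the 43.6 Mb found was 0.886 times it. The ratio was 0.950 for the control-only set, and 0.904, 0.970, 0.887 and 0.924 for the cross-group sets in the order given above. The knockout-only ratio was thus the lowest of the 6, next to that of knockout 1 with control 2. Relative to coverage, sequence exclusive to the knockouts was no more frequent in the lists as deposited than sequence exclusive to a mixed pair.

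**Figure D1:**
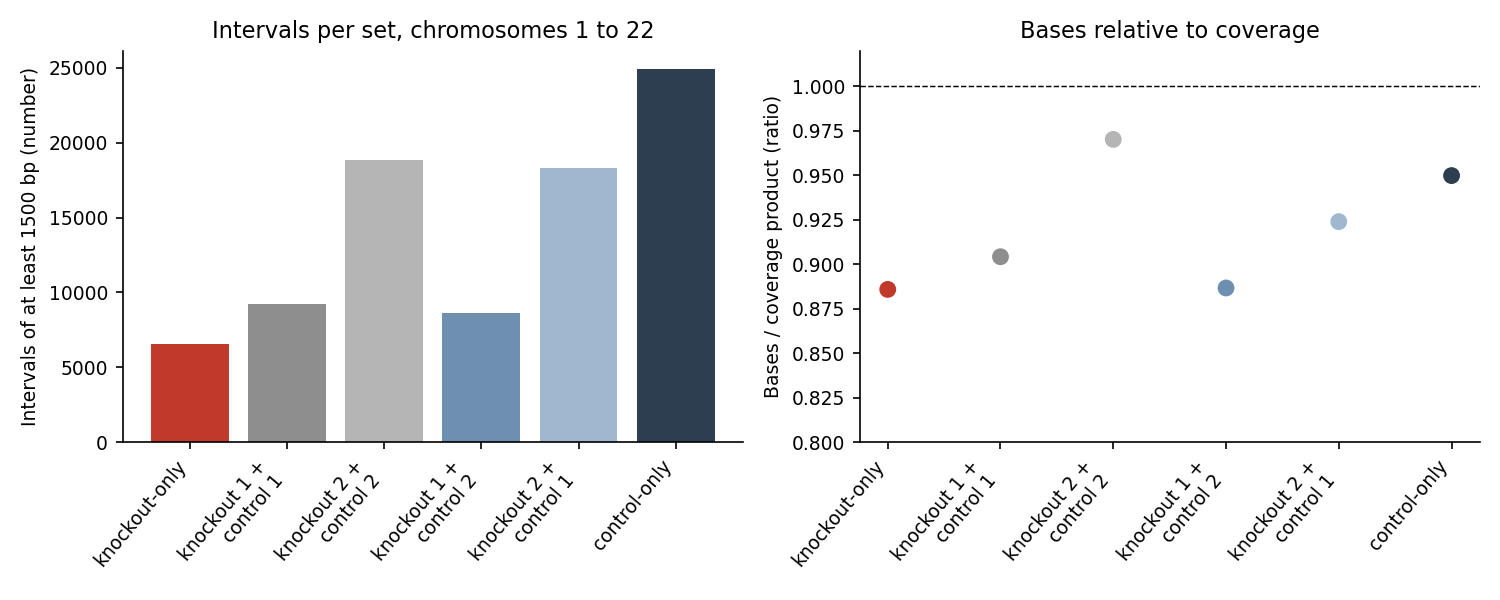
Left, bars give the number of intervals of at least 1500 bp in each pair-exclusive set of the 4 libraries; right, points give the bases of each set (any length) over the product of the 1-Mb window coverages, with a dashed line at 1. The knockout-only set, at 6554 intervals and a ratio of 0.886, is the lowest in both panels, and its ratio is close to the 0.887 of knockout 1 with control 2.

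Knockout-only intervals were short. Their median length was 1880 bp, with quartiles at 1660 and 2268 bp, against medians of 1901 to 1994 bp in the cross-group sets and 2054 bp in the control-only set. Of the members, 2661 reached 2000 bp, 447 reached 3000 bp (6.82%) and 13 reached 5000 bp. The share reaching 3000 bp was 14.5% in the control-only set and 7.30% to 11.6% in the cross-group sets.

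**Figure D2:**
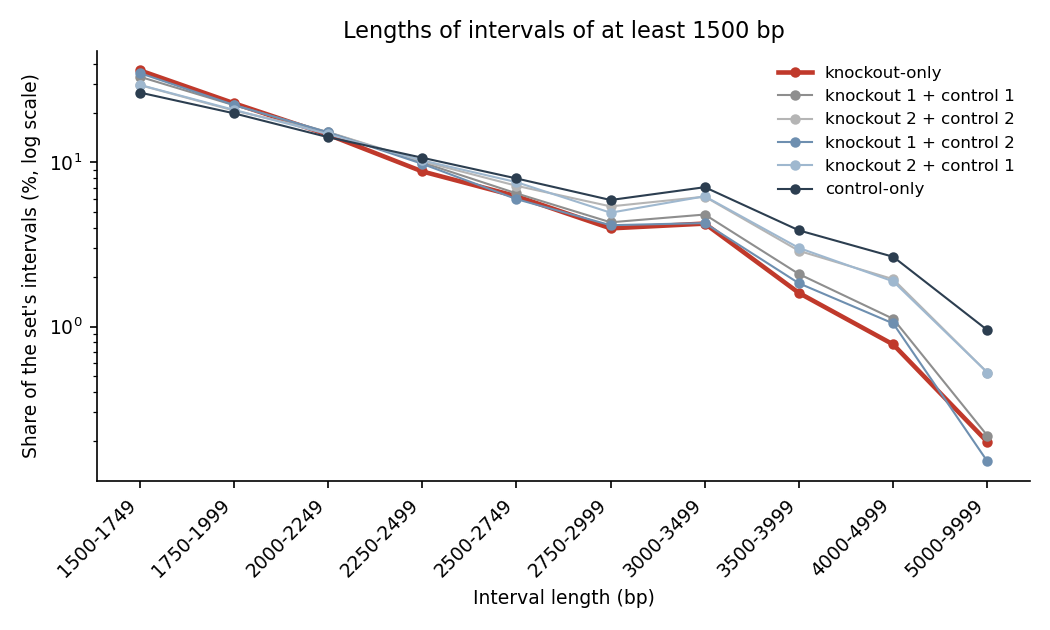
The share of each set's intervals (vertical, log scale) is plotted by length class in bp; the classes widen from 3000 bp on. The knockout-only curve starts highest, with 36.4% of members under 1750 bp, and ends at 0.198% from 5000 bp on, near the 2 cross-group sets that hold knockout replicate 1.

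The longest member was 6838 bp on chromosome 6 in band p22.3, chr6:21816921-21823758 (hg19, as for all positions here). It lay inside a peak of 8113 bp in knockout replicate 1 and of 12657 bp in knockout replicate 2, with fold enrichments of 1.83 and 1.73 by the authors' values, and the nearest control peak began 40 bp away. Chromosome 6 held 2 more of the 10 longest, 6191 bp at chr6:121743506-121749696 (q22.31) and 5681 bp at chr6:129652858-129658538 (q22.33), with 4542 and 3331 bp to the nearest control peak. Chromosome 4 held 3, of 6038 bp at chr4:103524017-103530054 (q24), 5984 bp at chr4:125410029-125416012 (q28.1) and 5310 bp at chr4:40813405-40818714 (p14).

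The others among the 10 longest were spread over 4 chromosomes. They measured 6102 bp at chr11:35005060-35011161 (p13), 5226 bp at chr5:174849736-174854961 (q35.2), 5124 bp at chr1:114186132-114191255 (p13.2) and 5056 bp at chr15:49479960-49485015 (q21.1). The member on chromosome 1 touched a control peak. Of the 20 peaks behind these 10 members, none reached q of 0.05, and their fold ran from 1.69 to 1.99.

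The peaks that held members were wide but not strong for their library, as were the knockout peaks behind the cross-group sets. In knockout replicate 1, 6529 peaks held a member, 5.99% of its peaks of at least 1500 bp, and in knockout replicate 2, 6527 peaks did, 4.34%. Their median width was 3147 and 3819 bp, against 2455 and 2858 bp for the other peaks of at least 1500 bp in the same libraries. Median fold by the authors' values was 1.92 and 1.76 in peaks with a member and 1.93 and 1.77 in the others. Median −log10 p was 1.64 and 1.51 in peaks with a member and 1.65 and 1.53 in the others. In peaks behind the cross-group sets, median width was 3115 and 3137 bp in knockout replicate 1 and 3756 and 3762 bp in knockout replicate 2. Their median fold was 1.91 in knockout replicate 1 and 1.75 to 1.76 in knockout replicate 2. An interval of at least 1500 bp needs a peak at least as long, so the length rule favours wide peaks in every set. The caller's q reached 0.05 in 0 of the peaks with a member in replicate 1 and in 1 in replicate 2. Such a q was rare in peaks behind the cross-group sets too. It was reached by 0 in knockout replicate 1, and by 7 of 18644 and 9 of 18019 in knockout replicate 2.

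Most members were parts of peaks and not whole peaks. A member made up a median of 66.1% of its peak in knockout replicate 1 and 53.6% in knockout replicate 2. It was the whole peak in 1054 cases (16.1%) in replicate 1 and in 589 (8.99%) in replicate 2. Of the 13108 member edges, 40.3% fell at the end of a peak of knockout replicate 1, 31.0% at the end of a peak of replicate 2 and 28.9% at the edge of a control peak. Some edges counted under more than 1 of these.

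Control peaks were close by. Of the members, 3124 (47.7%) touched a control peak and 68.1% had one within 1000 bp, and the median distance was 68 bp. In the cross-group sets, 48.7% to 54.1% touched a peak of a library the set leaves out, and in the control-only set 52.7%. Members more than 5 kb from any control peak numbered 372 (5.68%), against 2.88% to 4.12% in the cross-group sets and 3.20% in the control-only set. Members more than 10 kb away numbered 64 (0.977%), against 0.405% to 0.898% in the cross-group sets and 0.361% in the control-only set.

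A few members stood far from any control peak. A member of 1745 bp at chr13:19984490-19986234 (q12.11) was 55.3 kb from the nearest control peak, and 1 of 1501 bp at chr3:81532522-81534022 (p12.2) was 44.6 kb away. Such distances were found in other sets too. The farthest interval from a left-out peak was 26.3 to 80.8 kb away in the cross-group sets and 52.1 kb in the control-only set. Among the 10 most isolated, chosen after their values were seen, 5 were on chromosome 13, 2 each on chromosomes 9 and 14 and 1 on chromosome 3. Peaks of the 4 libraries covered between 4.82% and 6.64% of chromosome 13.

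The serial numbers in the peak names give a view past the end of the lists. They rose with position throughout, and were read as numbering every peak called, though no source at hand says so. A number missing between the listed peaks on either side of a member then marks a control peak that was called there or nearby but not listed. No number was missing in both controls for 915 of 6552 members (14.0%), against 7.24% in the control-only set and 6.74% to 12.5% in the cross-group sets. For each of the others at least 1 control had a called but unlisted peak somewhere in the gap that held the member. The sets leave out different libraries, and the part of this in the order of the shares was not tested.

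By chromosome, members were spread much as the cross-group sets were. Their density was 2.27 per Mb over the autosomes, highest on chromosomes 4 (3.38 per Mb, 647 members), 8 (3.07) and 6 (3.00), and lowest on 20 (0.301, 19 members), 22 (0.546) and 13 (0.547). Across the 22 autosomes, members per Mb and the cross-group mean per Mb had a Pearson r of 0.941 and a Spearman rho of 0.899, a description only, since the sets share libraries and covered length. Members per Mb and protein-coding genes per Mb, counted per chromosome from RefSeq on GRCh38, had an r of -0.0726 and a rho of -0.0853. Chromosome 19, the most gene-dense with 24.5 genes per Mb, held 1.76 members per Mb, and gene-poor chromosome 13 held 0.547.

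The knockout-only share of the 6 sets was used to compare chromosome arms that differ in density. Of the 44 arms, 4 held no interval of any set, all of them short arms of acrocentric chromosomes (13p, 14p, 15p and 22p). Among the 35 arms with at least 500 intervals in the 6 sets, the share was highest on 13q (12.0%, 63 of 526) and on 4q (10.8%, 518 of 4795), and lowest on 20q (0.960%, 7 of 729), 7q (5.04%, 219 of 4345) and 5p (5.09%, 106 of 2082). The arm 12p followed 4q with 10.6% (75 of 708).

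The long arm of chromosome 4, a gene-poor arm, held more members than any other arm. Peaks covered 17.0% and 23.8% of it in the knockouts and 24.5% and 24.4% in the controls, so knockout replicate 2 lay close to the controls there. In blocks of 10 Mb from 50 to 190 Mb the knockout-only share lay between 9.23% and 12.5%, above the autosomal 7.58% in every one of these 14 blocks. The short rest of the arm past 190 Mb held 0 members, and 6 control-only intervals were the most of any set there. Relative to the coverage product, 4q had a ratio of 0.935, within the range of 0.755 (19q) to 1.18 (13q) over the 35 arms.

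On 20q the picture was the reverse. Peaks covered 6.14% and 6.74% of it in the knockouts and 22.4% and 22.7% in the controls, and it held 7 members, between 1537 and 2418 bp long. Of these, 5 touched a control peak. On 20p, with coverage of 6.57% and 5.64% in the knockouts and 7.33% and 6.08% in the controls, there were 12 members of 135 intervals (8.89%). The arms with the lowest shares, 20q, 7q and 5p, were among those where coverage in the knockouts lay furthest below the controls. It was 18.0% and 26.2% against 35.2% and 34.8% on 7q, and 17.0% and 25.2% against 33.9% and 34.2% on 5p. The peak lists give no DNA copy number, and its part in the coverage of any arm was not tested.

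**Figure D3:**
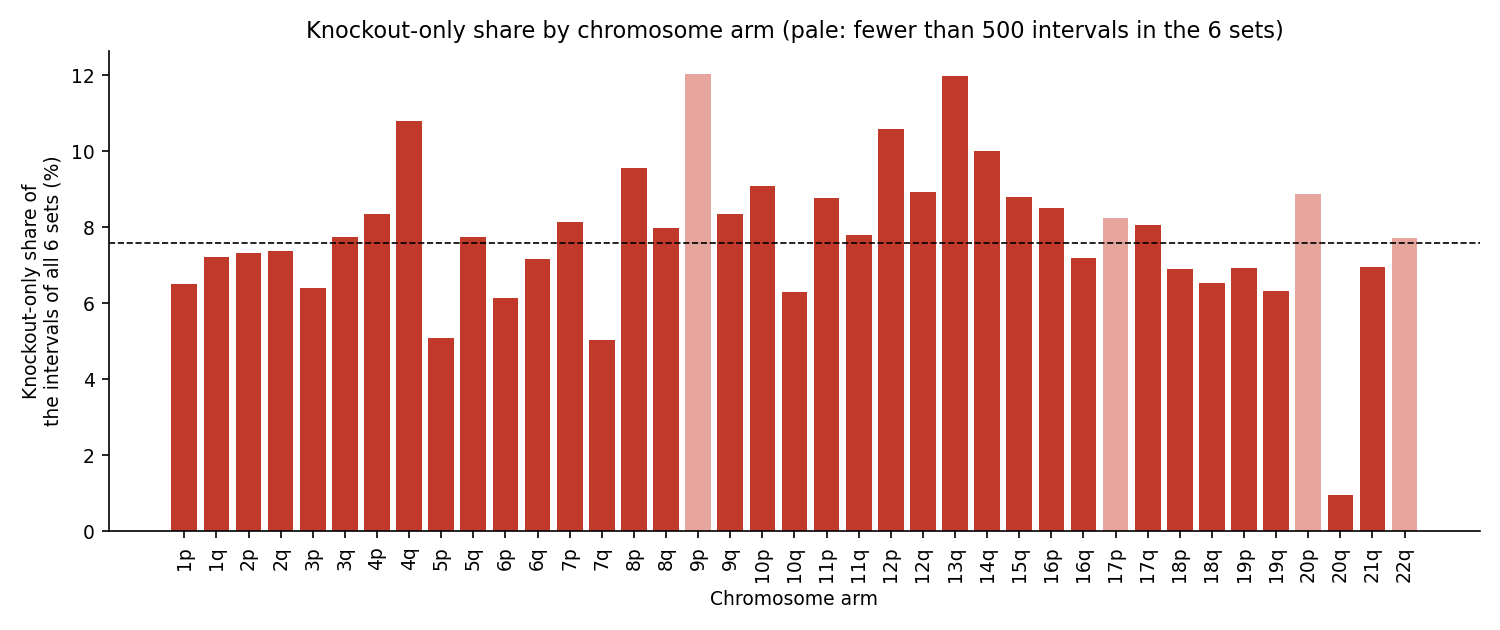
Bars give the knockout-only intervals as a percentage of the intervals of all 6 sets on each chromosome arm with at least 50 such intervals; the dashed line is the autosomal 7.58%, and pale bars have fewer than 500 intervals. The bars for 4q (10.8%) and 13q (12.0%) stand above the line and the bar for 20q (0.960%) far below it.

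Giemsa bands, which divide chromosomes into gene-rich pale and gene-poor dark stretches, were no part of the rule. Unstained bands make up 42.4% of the autosomes and held 3010 members (45.9%), against 43.1% to 45.2% in the cross-group sets. The darkest bands make up 16.0% and held 1100 members (16.8%), against 16.0% to 17.6%. Density was 2.47 members per Mb in unstained bands and 2.39 in the darkest. The bands around centromeres held 34 members (0.519%), against 0.476% to 0.556% in the cross-group sets. Density there was 0.346 members per Mb. Within 5 Mb of a chromosome end lay 322 members (4.91%), against 4.56% to 5.84% in the cross-group sets, where an even spread over the autosomes would give 7.64%. Placement by band and by distance from the ends was thus within or near the range of the mixed pairs.

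Knockout-only intervals lay mostly in windows where the mean coverage of the 4 libraries was high, though less so than the other sets. Windows of 1 Mb with a mean coverage over 25%, 43.8% of the windows, held 4211 members (64.3%), against 66.0% to 70.4% of the cross-group sets and 69.6% of the control-only set. Windows under 5%, 13.8% of the windows, held 22. The knockout-only share of the 6 sets was 7.83% in windows under 5%, 10.2% from 5 to 15%, 8.16% from 15 to 25% and 7.15% over 25%.

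Per window of 1 Mb there were 2.26 members on average and 12 at most. No member fell in 740 of the 2897 windows (25.5%), of which 193 had no peak in any library, and at least 5 members fell in 422. The variance over windows was 1.80 times the mean. Since this ratio grows with the number of intervals, clustering was compared by Morisita's index. This is the chance that 2 intervals share a window relative to a random scatter, which gives 1. The index was 1.35 for the knockout-only set, 1.33, 1.37, 1.34 and 1.41 for the cross-group sets in the order given above, and 1.45 for the control-only set. In the lists as deposited the index thus lay inside the range of the mixed pairs, but this depended on the settings. Among intervals over 1000 bp from any peak of a left-out library, it was 1.47 for the knockout-only set, the highest of the 6, against 1.30 to 1.34 for the cross-group sets. With 1 limit on −log10 p for all lists it was 1.47 against 1.51 to 1.63, and with lists of equal covered length 1.44 against 1.45 to 1.55, the lowest of the 6 in both. With windows lacking peaks left out, the index was 1.26 for the knockout-only set, 1.24 to 1.32 for the cross-group sets and 1.35 for the control-only set.

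**Figure D4:**
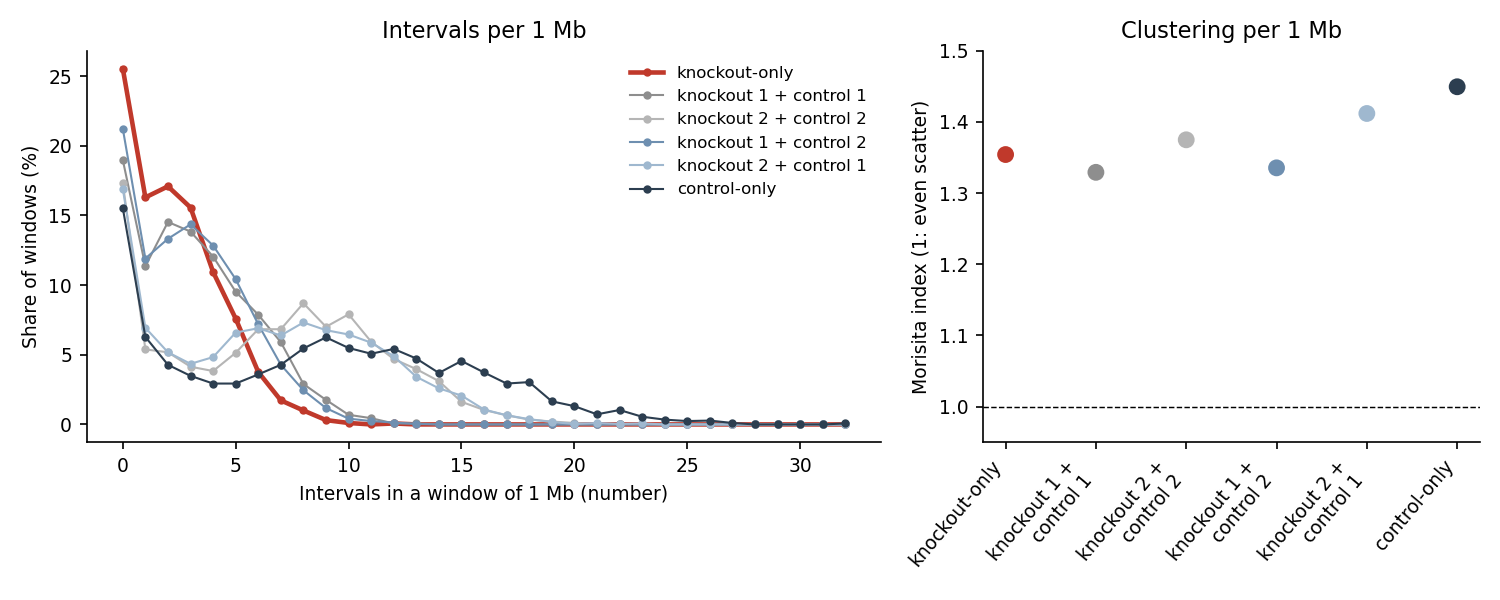
Left, the percentage of 1-Mb windows (vertical) with each number of intervals (horizontal) in the 6 sets. Right, Morisita's index of each set, with a dashed line at 1 for a random scatter, labelled as even scatter. The knockout-only set has no window past 12 intervals, and its index of 1.35 lies between those of the cross-group sets.

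Long runs of members were rare. The median gap between neighbouring members was 223 kb, and 419 gaps (6.41%) were at most 20 kb. Chaining members across such gaps left 87.8% of them alone and gave 38 runs of at least 3 members, with 4 at most. The longest run in the cross-group sets had 4 to 6 intervals and in the control-only set 10. The runs with 4 members numbered 3. The most compact of them was in band q14.3 of chromosome 11, at chr11:92601822-92637960, where peaks covered 43.8% and 56.4% in the knockouts and 9.21% and 23.6% in the controls. The others were at chr4:86129460-86179809 (q21.23), with 35.5% and 36.8% against 13.5% and 21.4%, and at chr12:72648595-72706042 (q21.1), with 26.6% and 48.3% against 29.0% and 25.6%. Of the runs of 3, the longest by bases were at chr5:95726866-95752304 (q15) and at chr8:59122015-59142327 (q12.1). In the run on chromosome 8 peaks covered 53.1% and 58.3% in the knockouts and 0 and 21.7% in the controls. Members themselves made up 36.8% of that run and 25.8% of the run on chromosome 11. Runs are built from members, so the rule favours higher coverage in the knockouts there, and nothing is read from these values.

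The 10 windows with the most members had a mean coverage of the 4 libraries between 23.6% and 32.3%. The highest numbers, 12 each, were on chromosome 4 from 103 to 104 Mb (q24) and on chromosome 12 from 73 to 74 Mb (q21.1). On chromosome 4, peaks covered 21.9% and 37.7% in the knockouts and 39.7% and 29.8% in the controls, and the control-only set had 11 intervals in the same window. On chromosome 12, coverage was 24.2% and 33.2% in the knockouts and 26.3% and 25.8% in the controls, with 5 control-only intervals. Windows with 10 members were on chromosome 1 from 66 to 67 Mb (p31.3), on chromosome 4 from 106 to 107 Mb (q24) and on chromosome 15 from 73 to 74 Mb (q24.1).

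The rest of the 10 held 9 members each, as did 4 further windows with fewer member bases, among them 1 in 9p23. The 5 were on chromosome 12 from 105 to 106 Mb (q23.3), chromosome 4 from 113 to 114 Mb (q25), chromosome 6 from 114 to 115 Mb (q21 to q22.1), chromosome 5 from 102 to 103 Mb (q21.1 to q21.2) and chromosome 21 from 22 to 23 Mb (q21.1). Chromosome 4 thus had 3 of the 10, all between 103 and 114 Mb. Knockout and control coverage overlapped in each of the 10 windows except that on chromosome 6, where both knockouts lay below both controls. Over all windows with peaks, both knockouts lay below both controls in 63.4%. Members add to coverage in the knockouts, so nothing is read from this difference. The largest of the other sets had between 10 and 16 intervals in these windows, in each of them at least as many as there were members.

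Coverage of whole windows was compared as well. Among the 422 windows with at least 5 members, both knockouts covered more than both controls in 4 (0.948%) and less in 253 (60.0%). Over all 2704 windows with peaks the same held in 36 (1.33%) and 1714 (63.4%). The rule used this contrast, so nothing is read from these shares.

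**Figure D5:**
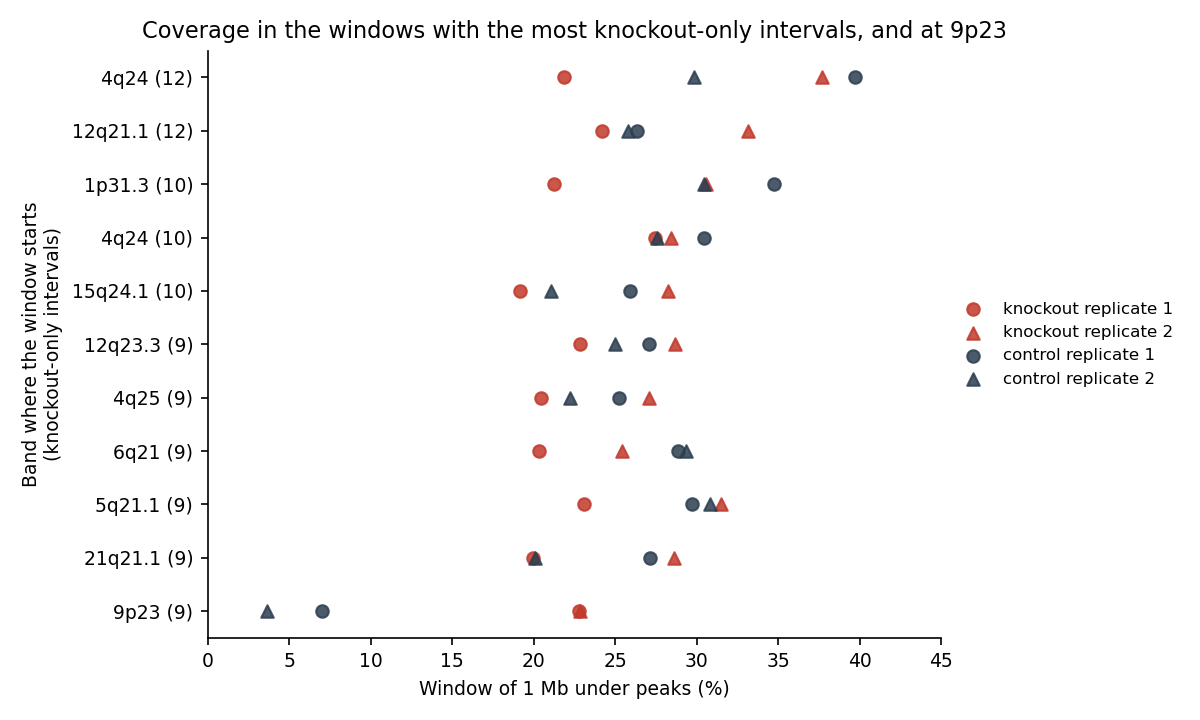
Points give the percentage of each 1-Mb window under peaks in the 2 knockout (red) and 2 control (dark) libraries, for the 10 windows with the most knockout-only intervals and, in the lowest row, the 9p23 window; the number of intervals is in brackets. Knockout and control points mix in most rows, while at 9p23 both knockouts (22.8% and 22.9%) lie above both controls (6.99% and 3.64%).

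In 5 of the 422 windows with at least 5 members (1.18%) the knockout-only set outnumbered each of the other sets, against 28 of the 2157 windows with any member (1.30%). The 5 were singled out after their values were seen. The widest lead was on chromosome 9 from 13 to 14 Mb (p23), with 9 members against at most 2 intervals of any other set. The others were on chromosome 2 from 192 to 193 Mb (q32.3, 7 members against at most 4), chromosome 18 from 57 to 58 Mb (q21.32, 6 against 3), chromosome 8 from 12 to 13 Mb (p23.1 to p22, 6 against 4) and chromosome 3 from 112 to 113 Mb (q13.2, 5 against 4).

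At 9p23 the members were spread along the window and far from control peaks. They measured between 1710 and 2644 bp, and the first and last were chr9:13026493-13029136 and chr9:13911640-13913749. The nearest control peak was between 1.11 and 33.5 kb away, and for 6 of the 9 it was over 5 kb away. By serial number, control replicate 1 had 3 to 15 unlisted peaks in the gaps that held them and control replicate 2 had 0 to 9. The next window, from 14 to 15 Mb, held 7 members, with coverage of 22.2% and 18.7% in the knockouts and 15.6% and 7.62% in the controls. From 9 to 12 Mb and from 15 to 18 Mb no window held a member, and coverage in the knockouts was between 1.24% and 8.32%. The 2 dense windows held 16 of the 33 members on 9p.

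The size of the knockout-only set depended on where the lists were read. With 1 limit on −log10 p of 1.49 for all lists, the knockouts covered 417 and 344 Mb and the controls 279 and 304 Mb. The knockout-only set then held 9597 intervals and was the largest of the 6, at 1.21 times the cross-group mean. With each list cut to the strongest 417 Mb it held 8801 and was again the smallest, at 0.856 times that mean. Relative to the coverage product the ratio was 1.05 at the common limit, inside the cross-group range of 1.01 to 1.16, and 0.985 at equal length, inside that of 0.963 to 1.07. Of the 6554 members, 57.1% kept at least 50% of their bases in such intervals at the common limit and 70.9% at equal length. Of the 10 densest windows, 2 were among the 10 densest at each of these settings.

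The low share on 20q and the high share on 4q kept their side of the autosomal share. In all 12 alternatives run, including each library left out, the knockout-only share was above the autosomal share on 4q and below it on 20q. The alternatives re-read the same lists and are not independent of each other. With 1 library left out the sets rest on unequal numbers of libraries, so those settings cannot show whether an arm kept its side. On 20q the share was 0 with a smallest length of 3000 bp and with a −log10 p of at least 2. On 9p, at 12.0% in the lists as deposited, the share was above the autosomal share in 8 alternatives and below it in 4. The arm 13q was not followed through the alternatives. At the common limit of −log10 p the shares were 26.6% on 4q, 3.63% on 20q and 20.2% on all autosomes. The lead of the 9p23 window did not hold at every setting. The window held 4 members against at most 1 interval of any other set at that limit, and 3 against 1 at equal length. It held none of any set at a smallest length of 3000 bp or with a −log10 p of at least 2. With control replicate 1 left out it held 10 knockout-only intervals against 41 of the largest other set, and with control replicate 2 left out 10 against 39. Without knockout replicate 1 it held 50 against 13, and without knockout replicate 2 it held 50 against 16. With 1 library left out, some sets need cover in 1 library and others in 2, so these 4 settings cannot show whether the lead held.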

How the data were processed

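The submitters' processing notes name hg19, the aligner BWA (0.7.17), SAMtools (1.16.1), the peak caller MACS2 (2.1.0) and deepTools (3.5.1), without settings or any background library. For each library the authors deposited a single list of broad peaks. A deposited peak has a score (10 times its −log10 p, cut to a whole number), a fold (a ratio over local background) and, for both p and q, the −log10. These are the authors' values for each peak, and were used only to describe or filter peaks.

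The sample titles gave the groups and the replicate numbers. Autosomal peaks were merged within each library, and maximal stretches covered in exactly 2 libraries were taken as the 6 sets (Python 3.11.15, pandas 2.3.3). Intervals were assigned to windows, arms and bands by their midpoint. Chromosome lengths came from GenomeInfoDb 1.38.1 and bands from circlize, whose ends matched the hg19 lengths on 22 of 22 chromosomes. No peak passed an hg19 end. The code was checked on simulated peaks against a base-by-base count.

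No test was run, because the rule used the coverage that is compared, and with 2 libraries against 2 no exact permutation p can fall under 0.05. The members, sets and settings were chosen with earlier results of these data known. The coverage product, the arm shares, the 9p23 window and their settings were added after the data were seen. Windows, intervals and runs were named by rank (10 windows with the most members, 10 longest members, 5 longest runs). No gene is named and no sequence is printed, since the gene and sequence tables at hand are on another build than the peaks.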

Additional observations from a re-analysis of the deposited data

How the results depend on the processing

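No paired analysis was possible because the results come from no test. The number of members was 14882 with a smallest length of 1000 bp and 447 with 3000 bp, 10462 with 1 limit on −log10 q, 154 with a −log10 p of at least 2, 9912 with gaps of up to 2000 bp filled and 2097 when intervals within 1000 bp of a left-out peak were dropped. Leaving out 1 library, which loosens the rule, gave 13687 to 58757 intervals and 29.5 to 143 Mb, and a −log10 p of at least 2 gave 0.312 Mb. The median length was 1424 bp (1000 bp), 3376 bp (3000 bp), 2007 bp (limit on −log10 p), 2080 bp (limit on −log10 q), 1965 bp (equal length), 1926.5 bp (−log10 p of at least 2), 2066 bp (gaps filled) and 1947 to 2139 bp without 1 library.

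The ratio to the cross-group mean passed 1 with the limit on −log10 p (1.21) and on −log10 q (1.37), and ranged from 0.320 to 1.10 without 1 library. It was above 1 without knockout replicate 1, where the sets rest on unequal numbers of libraries. The ratio to the coverage product passed 1 with these limits (1.05 and 1.08) and with a −log10 p of at least 2 (1.61), was 0.985 at equal length, and ranged from 0.821 to 1.03 without 1 library. Morisita's index lay above the cross-group range, given after each value, over 1000 bp from left-out peaks (1.47, 1.30 to 1.34), with the limit on −log10 q (1.71, 1.59 to 1.68) and with 3000 bp (1.482, 1.362 to 1.480). It lay below the range with the limit on −log10 p (1.47, 1.51 to 1.63) and at equal length (1.44, 1.45 to 1.55). It lay inside with a −log10 p of at least 2 (2.21, 1.62 to 5.60), in windows of 500 kb (1.39, 1.33 to 1.41) and of 2 Mb, with 1000 bp and with gaps filled. Without 1 library it was 1.20 to 1.44, and just below the range without knockout replicate 2. The limits change which peaks are read and how much each library covers. Other causes were not tested. Values were compared with the spread of the 4 cross-group sets (1 SD), and numbers by a factor of 1.5. Read depth is unknown, so no value here has a counting error.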

Other observations

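Outside the autosomes, the same rule gave 45 knockout-only intervals (95.2 kb) on chromosome X, against 43 to 96 intervals in the cross-group sets and 205 in the control-only set. On chromosome Y and on the mitochondrial genome it gave 0 intervals in each of the 6 sets.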
